A study of Mus musculus with 6 samples.

Results

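Glucocorticoid-responsive genes are genes whose transcription follows the adrenal steroid hormone corticosterone in the mouse. Described here are 8 of them among the 14992 genes of the deposited table, found there by their symbols: the receptor gene Nr3c1 and the responsive genes Tsc22d3, Fkbp5, Per1, Klf9, Zbtb16, Ddit4 and Dusp1. All 8 were present and all 8 had enough reads to be tested. They count as selected on the inhibitor-against-vehicle read counts of these same libraries, which were known when they were proposed, so their own folds and adjusted p-values are a description and support nothing. The tested libraries came from bone marrow of irradiated C57/BL6 recipients that carried whole marrow of Dnmt3a knockout donors and received a PI3Kalpha/beta inhibitor at 75 mg/kg for 21 days. The control libraries came from recipients of the same knockout marrow given vehicle, also for 21 days, so the knockout and the transplant are shared by both groups. There were 3 libraries in each group, numbered 1, 3 and 5 for the inhibitor and 1, 2 and 3 for vehicle. The labels give neither how the knockout was made, nor the age or sex of the mice, nor how many host cells remained. In the treatment protocol the transplanted cells are called leukaemic. Nothing states that each library came from a separate mouse, so a p-value covers the spread between libraries, which may be technical in part.

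The receptor encoded by Nr3c1 waits in the cytosol in a complex with HSP90 and its cochaperones. Hormone binding sends it to the nucleus, where it binds DNA and raises the transcription of genes that quiet inflammation, slow growth and adjust metabolism, some of which, such as Fkbp5, feed back on the receptor itself. In marrow, glucocorticoids are known for cutting lymphoid output and for sparing granulocytes. Several of these genes also answer to other signals: Tsc22d3 is a target of FOXO factors, which AKT, downstream of PI3K, keeps out of the nucleus, Per1 belongs to the circadian clock, Ddit4 rises in hypoxia and amino acid shortage, and Dusp1 is an immediate early gene.

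The 250 bases before the annotated start are shown for 5 of the genes, because the results below turn on which of them differ together. Sequences are from RefSeq (GRCm38.p6), in which 6 of the 8 genes had 9 start windows between them. Nr3c1 and Zbtb16 had none. Capitals mark matches, on either strand, to 1 of the motifs searched: the full element of the glucocorticoid receptor (AGAACA and TGTTCT with 3 bases between them), its core ACANNNTGT, which lies inside the full element, the E-box CACGTG of clock factors, TGTTTAC of FOXO factors and TGACGTCA of cAMP-responsive factors. Tsc22d3 has 3 annotated starts, of which the one nearest to the gene's end is shown.
Tsc22d3, chrX:140542669-140542918, minus strand: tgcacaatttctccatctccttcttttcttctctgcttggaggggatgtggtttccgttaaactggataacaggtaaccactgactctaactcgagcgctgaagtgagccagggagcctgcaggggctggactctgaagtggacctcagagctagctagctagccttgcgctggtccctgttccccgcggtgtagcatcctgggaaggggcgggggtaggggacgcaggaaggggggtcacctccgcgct
Fkbp5, chr17:28486150-28486399, minus strand: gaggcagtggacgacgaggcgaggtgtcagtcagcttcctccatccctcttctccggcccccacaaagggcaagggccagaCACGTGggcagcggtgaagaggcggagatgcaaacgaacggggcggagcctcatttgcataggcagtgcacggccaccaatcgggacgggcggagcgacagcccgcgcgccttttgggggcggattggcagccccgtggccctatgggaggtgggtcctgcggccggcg
Per1, chr11:69098699-69098948, plus strand: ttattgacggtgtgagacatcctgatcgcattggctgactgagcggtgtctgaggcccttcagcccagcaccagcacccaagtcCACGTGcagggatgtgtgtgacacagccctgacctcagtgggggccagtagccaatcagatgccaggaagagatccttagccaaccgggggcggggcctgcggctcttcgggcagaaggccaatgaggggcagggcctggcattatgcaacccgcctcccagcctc
Klf9, chr19:23140976-23141225, plus strand: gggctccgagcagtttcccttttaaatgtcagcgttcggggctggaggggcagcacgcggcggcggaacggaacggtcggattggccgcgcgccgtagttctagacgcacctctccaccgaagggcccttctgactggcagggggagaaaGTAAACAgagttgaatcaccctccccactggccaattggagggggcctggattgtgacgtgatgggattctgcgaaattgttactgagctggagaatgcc
Dusp1, chr17:26508473-26508722, minus strand: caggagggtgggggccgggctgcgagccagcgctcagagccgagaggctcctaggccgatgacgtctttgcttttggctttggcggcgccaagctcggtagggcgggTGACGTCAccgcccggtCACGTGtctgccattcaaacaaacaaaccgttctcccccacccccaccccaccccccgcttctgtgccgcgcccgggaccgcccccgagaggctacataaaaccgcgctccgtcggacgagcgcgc
The E-box stood in the windows of Fkbp5, Per1 and Dusp1, and in 6.02% of all 32851 windows of the table. Klf9 held GTAAACA, which is TGTTTAC read on the other strand and occurs in 3.17% of windows. Dusp1 also held TGACGTCA, found in 1.55% of windows. In none of the 9 windows was there a match to the full receptor element, held by 0.00913% of all windows, or to its core, held by 5.84%. The windows of Ddit4, the other start of Per1 and all 3 starts of Tsc22d3 held none of the 5 motifs. A match is a description of letters and no site of binding, and a missing match says only that these letters are not in this window.

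Total counts ran from 28198638 to 35299105 reads in inhibitor libraries and from 33762431 to 59384880 in vehicle libraries. Dnmt3a read 15.4 to 20.2 CPM (reads relative to the scaled library total) with the inhibitor and 17.3 to 24.9 CPM with vehicle, and since both groups carry the knockout this checks no label. The 14 neutrophil markers, of which 2 rose in edgeR, summed to 107099 to 129831 CPM with the inhibitor and 42807 to 68816 CPM with vehicle. Vehicle 1 stood apart in markers that are not among the 8 genes, from lists chosen with earlier results of these data known. The 20 macrophage markers, of which 7 fell with the inhibitor, summed to 1388 to 1789 CPM in inhibitor libraries, against 12011 CPM in vehicle 1 and 3522 and 3985 CPM in vehicles 2 and 3. The 12 erythroid markers summed to 1445 to 3180 CPM with the inhibitor, against 6859 CPM in vehicle 1 and 2213 and 2386 CPM in vehicles 2 and 3. For 10 stromal markers the sums were 211 to 352 CPM with the inhibitor, against 699.8 CPM in vehicle 1 and 282 and 289 CPM in vehicles 2 and 3. Every macrophage, erythroid and stromal marker had reads in the table. Beside the marker calls above, edgeR called 0.633% of all tested genes higher and 1.19% lower. It called none of the erythroid or stromal markers in either direction. Of all 12806 tested genes, 9.38% stood at least 2-fold higher in vehicle 1 than in both other vehicles. The values of the 8 genes are therefore given with and without that library. So are the calls and medians of the gene lists that follow them, and the values of some single genes in the lists.

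Among the 8 genes, 3 had higher levels in every inhibitor library than in any vehicle library: Tsc22d3, Zbtb16 and Fkbp5. A further 4, Per1, Klf9, Ddit4 and Dusp1, were set by vehicle 1, which held 3.20 to 4.93 times the mean of vehicles 2 and 3. The receptor gene Nr3c1 overlapped between the groups. With all 6 libraries, 4 of the 8 log2 fold changes (inhibitor over vehicle) were above 0 and 4 below, with a median of -0.01, beside 0.00093 over all tested genes. Without vehicle 1, 7 of 8 were above 0, with a median of 0.54, beside 0.02 over all genes tested.

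**Figure D1:**
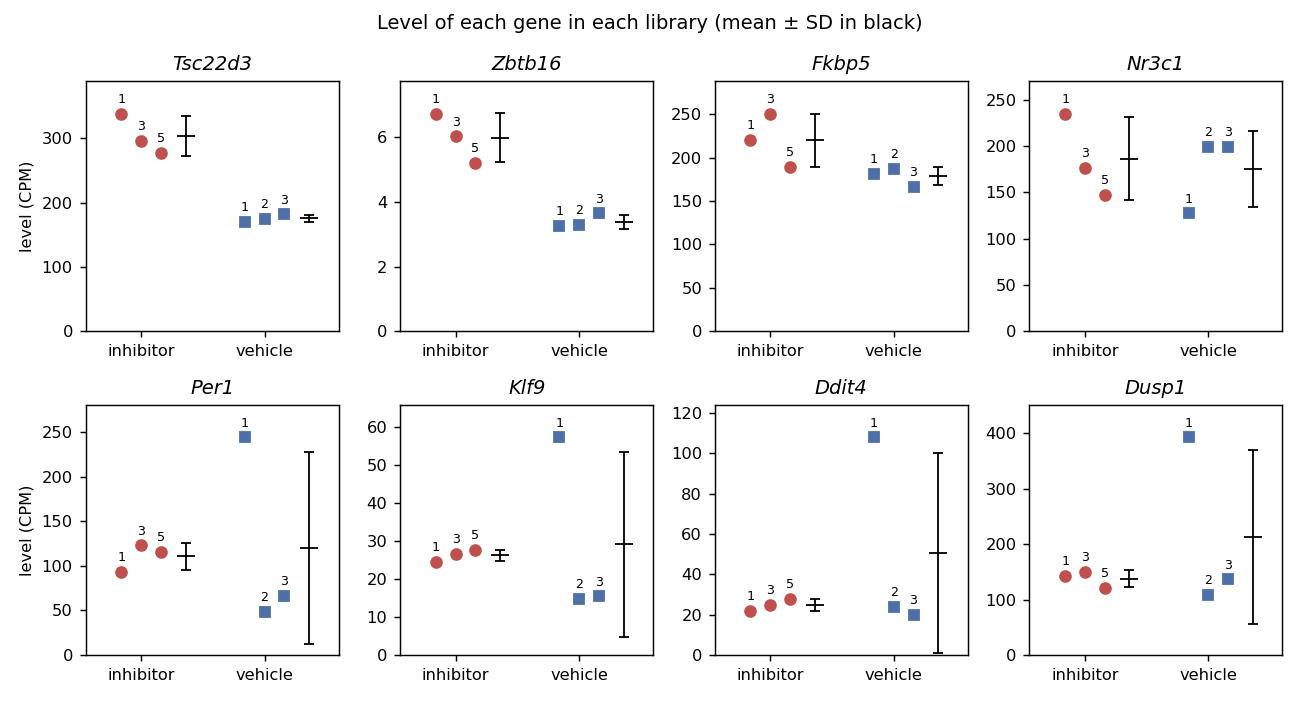
CPM of the 8 genes in each library, inhibitor (circles) left and vehicle (squares) right, with library numbers above the points and the mean ± SD of 3 libraries in black; each panel has its own linear axis from 0. Vehicle 1 is the highest point for Per1, Klf9, Ddit4 and Dusp1 and lies with the other vehicles for Tsc22d3, Zbtb16 and Fkbp5.

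Tsc22d3 encodes GILZ, a leucine zipper protein that binds and restrains NF-kB and AP-1 and is among the most direct readouts of the receptor in blood cells (chromosome X, 140539528 to 140600659, GRCm38). It had 339, 297 and 277 CPM in inhibitors 1, 3 and 5, against 171, 174 and 182 CPM in vehicles 1, 2 and 3. The groups lay well apart, and the vehicles were close to each other, with a coefficient of variation of 3.22%, against 10.3% among inhibitor libraries. Its log2 fold change came to 0.79 ± 0.13 (SE, 3 libraries a group), or 1.73-fold, with an edgeR adjusted p of 0.0403 over all genes. It was the only 1 of the 8 genes called by edgeR, beside 0.633% of all tested genes called higher and 1.19% called lower. None of the 8 was called lower. At a raw p below 0.05, 2 of the 8 were higher and 0 lower, beside 9.68% and 11.9% of all genes, while DESeq2 called 2 on the higher side and 0 on the lower, beside 4.91% and 7.24% of 12794 genes. Limma voom, with each library weighted by its quality, called 5 higher (Tsc22d3, Zbtb16, Fkbp5, Per1 and Klf9) and 0 lower, beside 10.7% and 11.6% of all genes. The groups did not overlap for 3 of the 8 on the higher side and 0 on the lower, beside 14.4% and 16.2% of all genes. Without vehicle 1 the value was 0.77 ± 0.13 (edgeR adjusted p = 0.0186). Leaving out vehicle 2, vehicle 3, inhibitor 1, inhibitor 3 or inhibitor 5 ended the call, with edgeR adjusted p of 0.0721, 0.104, 0.141, 0.175 and 0.137, while the value stayed between 0.72 and 0.86.

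Zbtb16 encodes PLZF, a zinc finger repressor of progenitors and innate-like lymphocytes that glucocorticoids induce in many tissues (chromosome 9, 48654297 to 48836222). It was the lowest of the 8, with 207, 162 and 184 reads in inhibitors 1, 3 and 5, against 114, 119 and 229 reads in vehicles 1, 2 and 3, of which the last was the deepest library. Scaled to library size, these were 6.73, 6.03 and 5.21 CPM with the inhibitor and 3.25, 3.29 and 3.64 CPM with vehicle. Every inhibitor library was above every vehicle library, and the log2 fold change was 0.82 ± 0.20 (edgeR adjusted p = 0.079), 1.76-fold. Without vehicle 1 it was 0.78 ± 0.20 (adjusted p = 0.0518). The profile of Zbtb16 over the 6 libraries was the closest to that of Tsc22d3 among the 8, with a mean absolute difference of 0.06 in log2(CPM + 1) once each gene was centred on its own mean. At these low levels the added 1 narrows the differences of Zbtb16 between libraries, so this distance holds for that scale only. The 13 T and NK cell markers, the lineage in which PLZF is best known, summed to 216 to 229 CPM with the inhibitor and 235 to 334 CPM with vehicle.

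Fkbp5 encodes FKBP51, an HSP90 cochaperone that lowers the hormone affinity of the receptor and so forms a short feedback loop (chromosome 17, 28399094 to 28517527). It had 221, 251 and 189 CPM in inhibitors 1, 3 and 5, against 182, 187 and 167 CPM in vehicles 1, 2 and 3. The groups were separated by the narrow gap between inhibitor 5 and vehicle 2. The log2 fold change was 0.30 ± 0.14 (edgeR adjusted p = 0.259), 1.23-fold, and 0.31 ± 0.15 without vehicle 1 (adjusted p = 0.229).

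Nr3c1, the receptor gene, had 235, 177 and 147 CPM in inhibitors 1, 3 and 5, against 127, 199 and 199 CPM in vehicles 1, 2 and 3. Its range within the inhibitor group covered vehicles 2 and 3. The log2 fold change was 0.09 ± 0.24 (edgeR adjusted p = 0.851) with all libraries and -0.10 ± 0.19 (adjusted p = 0.791) without vehicle 1, and it was also below 0 without inhibitor 1. A p that misses the threshold does not show that the receptor's message was equal in the groups.

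Per1 encodes a repressor of the circadian clock that is switched on directly by the receptor (chromosome 11, 69095217 to 69109960). It had 93.5, 123 and 115 CPM in inhibitors 1, 3 and 5, against 244, 48.7 and 66.5 CPM in vehicles 1, 2 and 3. The inhibitor libraries lay between vehicle 1 and the other 2 vehicles. With all libraries the log2 fold change was -0.11 ± 0.56 (edgeR adjusted p = 0.923). Without vehicle 1 it turned to 0.94 ± 0.18 (adjusted p = 0.0226).

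Klf9 encodes a Krüppel-like transcription factor that glucocorticoids and thyroid hormone induce and that acts on other receptor targets (chromosome 19, 23141226 to 23168134). It had 24.6, 26.6 and 27.5 CPM in inhibitors 1, 3 and 5, against 57.3, 14.6 and 15.4 CPM in vehicles 1, 2 and 3, the same arrangement as in Per1. The log2 fold change was -0.15 ± 0.51 (edgeR adjusted p = 0.891), and without vehicle 1 it was 0.80 ± 0.12 (adjusted p = 0.0126). Per1 and Klf9 are thus, with Tsc22d3, the 3 of 8 called higher without vehicle 1, beside 3.10% of 12946 genes called higher and 4.89% called lower in that fit. Since vehicle 1 was left out after its values were known, these calls are a description of the other 5 libraries.

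Ddit4 encodes REDD1, which holds back mTORC1 through the TSC complex (chromosome 10, 59949669 to 59951834). It had 21.99, 24.9 and 27.8 CPM in inhibitors 1, 3 and 5, against 108, 24.0 and 19.8 CPM in vehicles 1, 2 and 3. Apart from vehicle 1, which was 4.93 times the mean of the other vehicles, the libraries of both groups lay in 1 narrow band. The log2 fold change was -1.02 ± 0.62 (edgeR adjusted p = 0.371) with all libraries and 0.19 ± 0.15 (adjusted p = 0.478) without vehicle 1.

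Dusp1 encodes a phosphatase that switches off p38 and JNK and carries part of the anti-inflammatory action of glucocorticoids (chromosome 17, 26505590 to 26562128). It had 142, 150 and 121 CPM in inhibitors 1, 3 and 5, against 393, 109 and 136 CPM in vehicles 1, 2 and 3. Vehicle 1 was again alone, and the other vehicles overlapped the inhibitor libraries. The log2 fold change was -0.63 ± 0.46 (edgeR adjusted p = 0.457), and 0.16 ± 0.15 (adjusted p = 0.526) without vehicle 1. The count of Dusp1 is uncertain in part, since annotated exons overlap those of Ergic1 on the opposite strand and the library chemistry does not mark strand. Ergic1 stood at 34.6 to 38.6 CPM with the inhibitor and 41.6 to 68.1 CPM with vehicle, the highest in vehicle 1.

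**Figure D2:**
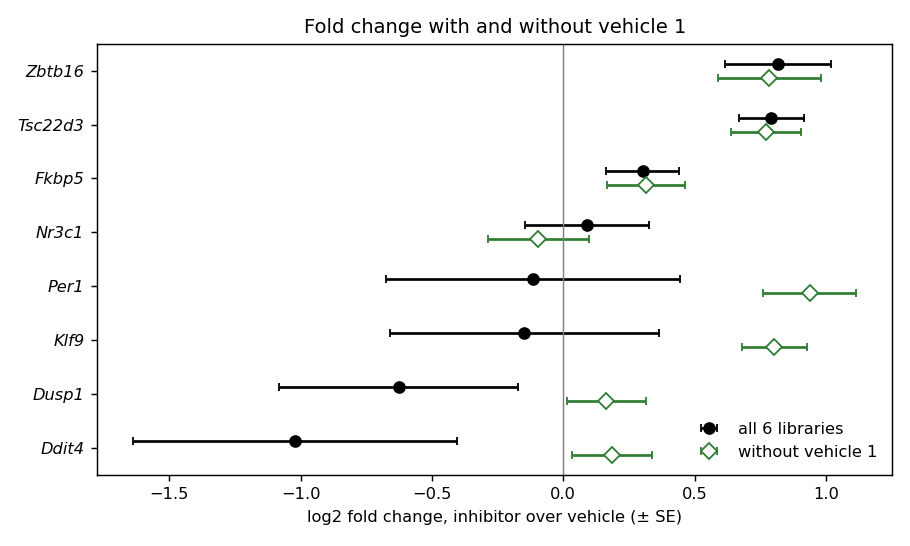
Log2 fold change of each gene, inhibitor over vehicle, with its SE, over all 6 libraries (black circles) and without vehicle 1 (open green diamonds). Tsc22d3, Zbtb16 and Fkbp5 keep their place, while Per1 moves to 0.94 and Klf9 to 0.80 and Ddit4 and Dusp1 come close to 0.

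The 4 genes high in vehicle 1 were 4 of 8, beside the 9.38% of all tested genes given above. Against the mean of vehicles 2 and 3, vehicle 1 differed by 2.08 in Per1, 1.93 in Klf9, 2.30 in Ddit4 and 1.68 in Dusp1 on the log2 scale. In the same library Nr3c1 was at -0.65. In Per1 and Klf9 the 3 inhibitor libraries were also above vehicles 2 and 3, by 0.70 to 1.09 and by 0.71 to 0.88. In Ddit4 they were at 0.01 to 0.34, and in Dusp1 at -0.03 to 0.29. These genes move in vehicle 1 together with its macrophage, erythroid and stromal markers, and the part of those cells in the values was not tested. In bulk marrow, fewer cells of a type and less RNA per cell cannot be told apart. The neutrophil markers were in sum higher in every inhibitor library than in any vehicle library, as were Tsc22d3, Zbtb16 and Fkbp5. So were 13 B-cell markers, of which 3 rose, at 210 to 621 CPM with the inhibitor and 69.3 to 152 CPM with vehicle. The 11 eosinophil and basophil markers, of which 4 rose, were too, at 487 to 599 CPM and 293 to 421 CPM. Of all tested genes edgeR called 0.633% higher. Only the direction between groups is shared. In vehicles 1, 2 and 3 the neutrophil sums were 42807, 68816 and 62426 CPM, while Tsc22d3 had 171, 174 and 182 CPM. The sums of macrophage, monocyte, T and NK cell and plasma cell markers were lower in every inhibitor library than in any vehicle library. The 7 plasma cell markers summed to 452 to 462 CPM with the inhibitor, against 976, 492 and 471 CPM in vehicles 1, 2 and 3. Singly, 2 of these 7 were lower without overlap, beside 16.2% of all genes. The part of these cells was not tested either.

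**Figure D3:**
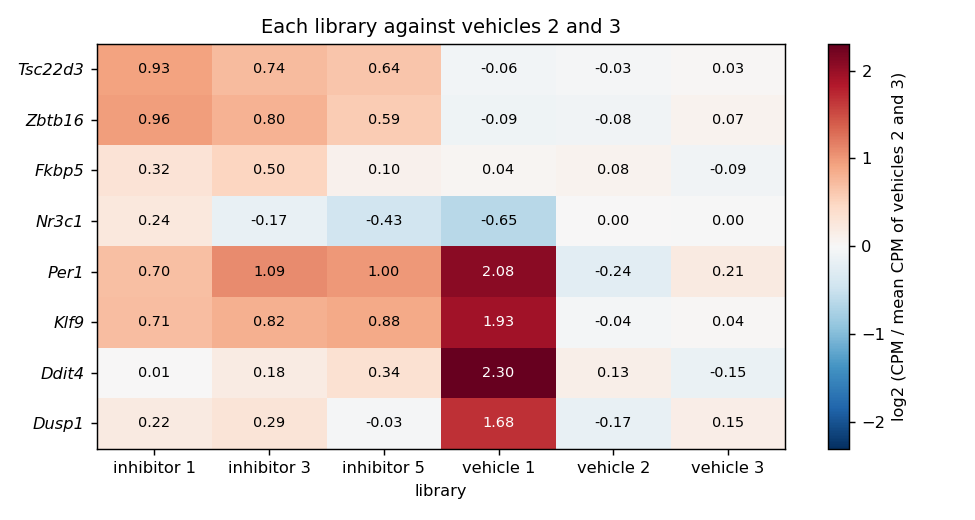
Log2 ratio of each gene's CPM in each library to its mean in vehicles 2 and 3, with inhibitor libraries left of vehicle libraries; red is higher and blue lower. The vehicle 1 column is high in Per1 (2.08), Klf9 (1.93), Ddit4 (2.30) and Dusp1 (1.68) and low in Nr3c1 (-0.65).

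Spread within groups is given here as a description. For Per1, Klf9, Ddit4 and Dusp1 the spread among vehicle libraries follows from the high vehicle library described above. It is therefore no separate observation. Over the 8 genes the median coefficient of variation was 12.2% among inhibitor libraries and 48.6% among vehicle libraries, beside 12.97% and 18.2% over all tested genes. Among vehicle libraries it was 90.2% for Per1, 83.9% for Klf9, 98.3% for Ddit4 and 73.6% for Dusp1, but 6.41% for Zbtb16 and 5.97% for Fkbp5. For Nr3c1 it was 24.0% with the inhibitor and 23.7% with vehicle.

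Levels of different genes were compared as CPM per kilobase of the deposited gene length. With the inhibitor, Tsc22d3 was the most abundant of the 8 in every library, at 114.9 ± 11.8 (SD, n = 3), followed by Dusp1 at 70.9 ± 7.89 and Fkbp5 at 56.7 ± 7.86 CPM per kilobase. Nr3c1 came next at 29.5 ± 7.06, then Per1 at 23.5 ± 3.25, Ddit4 at 14.8 ± 1.72, Klf9 at 8.04 ± 0.467 and Zbtb16 at 1.17 ± 0.149. The ranges of Dusp1 and Fkbp5 overlapped, as did those of Nr3c1 and Per1, and the other neighbours in this order were separate in all 3 libraries. With vehicle the order was blurred by vehicle 1, where Dusp1 reached 202 CPM per kilobase, against 56.1 and 70.2 in vehicles 2 and 3. There Tsc22d3 stood at 66.3 ± 2.13, above Fkbp5 at 46.0 ± 2.74 in every library, and Zbtb16 was the lowest in every library at 0.664 ± 0.0425. The mean levels of Ddit4 (30.0 ± 29.5), Nr3c1 (27.7 ± 6.55) and Per1 (25.5 ± 23.01) in vehicle libraries did not differ beyond their spread.

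Genes with the profiles nearest to each of the 8 were found among the 9697 genes that averaged 5 CPM or more, by the mean absolute difference in centred log2(CPM + 1) over the 6 libraries. Zbtb16 itself fell below that minimum and was not among the candidates. Nearest to Tsc22d3 were Hbp1 (0.0255), Wdr45 (0.0308) and Erg (0.0488). Hbp1 had 257, 233 and 214 CPM in inhibitors 1, 3 and 5, against 127, 132 and 133 CPM in vehicles 1, 2 and 3. Nearest to Zbtb16 were N4bp2l1, Sri and Gpbp1l1, with differences of 0.0322 to 0.0547. At the 3.25 to 6.73 CPM of Zbtb16, the added 1 narrows differences between libraries more than in genes of higher level. Its neighbours hold for that scale only. Nearest to Fkbp5 were Sfn, Coq4 and Csad (0.0599 to 0.0621), and to Nr3c1 Ralgapa1, Add3 and Tgfbr1 (0.0274 to 0.0331). Per1 lay nearest to Cyth1 (0.102), and Klf9 was second (0.134) of the 9697 candidates, ahead of Pla2g2d. In turn Per1 was the nearest gene to Klf9, before Cyth1 and Mir22hg. Nearest to Ddit4 were Pim3, Cirbp and Alas2 (0.121 to 0.144), and to Dusp1 were Jund (0.0779), Igfbp3 and Rab20.

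The lists below are counted by the same rules as above, so that their calls stand beside 0.633% higher and 1.19% lower of all genes in edgeR, 9.68% and 11.9% at a raw p below 0.05, 4.91% and 7.24% by DESeq2, and 3.10% and 4.89% in edgeR without vehicle 1. Of 30 other genes that glucocorticoids are known to induce in blood or other tissues, 2 rose and 1 fell with the inhibitor in edgeR, with a median log2 fold change of 0.10 beside 0.00093 over all genes. Il7r, the interleukin 7 receptor, rose by 1.93 ± 0.33 (adjusted p = 0.0434), and Rgcc, a regulator of the cell cycle, by 0.75 ± 0.14 (0.0482). Rgcc had 52.0, 55.8 and 69.2 CPM in inhibitors 1, 3 and 5, against 35.7, 35.8 and 34.1 CPM in vehicles 1, 2 and 3. Mertk, through which macrophages clear dying cells, fell by 2.97 ± 0.38 (0.0258), with -2.43 without vehicle 1 (0.00132). Il7r is also a B-cell marker and Mertk, like Cd163 in the same list, a macrophage marker. At a raw p below 0.05, 6 of the 30 were higher and 9 lower, and DESeq2 called 5 on each side. In vehicle 1, 10 of the 30 genes were at least 2-fold above both other vehicles, beside 9.38% of all tested genes. Without that library 6 rose and 5 fell in edgeR, and the median was 0.30, beside 0.02 over all genes, whereas it was -0.02 without vehicle 2. Of the classical targets outside the rule for names, 3 were picked after their values were seen, the first 2 for being high in vehicle 1. The metallothionein gene Mt2 had 7.42, 13.5 and 11.7 CPM in inhibitors 1, 3 and 5, against 117, 18.7 and 17.7 CPM in vehicles 1, 2 and 3. Cdkn1a, the p21 inhibitor of cyclin-dependent kinases, had 17.6, 16.4 and 19.9 CPM, against 168, 26.1 and 29.8 CPM in the same order of libraries. Sgk1, a kinase related to AKT, had 91.3, 69.8 and 58.9 CPM with the inhibitor, against 64.8, 53.4 and 55.7 CPM with vehicle, and the groups overlapped.

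Of 16 inflammatory genes that glucocorticoids are known to repress, 14 were tested, 2 fell and 0 rose, with a median of -1.04. At a raw p below 0.05 none was higher and 7 were lower, and DESeq2 called 0 higher and 6 lower. Icam1, an adhesion molecule of inflamed vessels and leukocytes, fell by 1.05 ± 0.16 (edgeR adjusted p = 0.0402), and Ptgs2, cyclooxygenase 2, fell by 2.85 ± 0.52 (0.0473). Without vehicle 1 the log2 fold change of Icam1 was -0.90 (0.0079) and that of Ptgs2 -2.23 (0.0119). Icam1 had 17.2, 16.3 and 15.6 CPM in inhibitors 1, 3 and 5, against 40.7, 29.3 and 31.6 CPM in vehicles 1, 2 and 3. Ptgs2 was low, at 0.586, 0.595 and 0.425 CPM, against 6.67, 1.91 and 3.05 CPM in the same order of libraries. Among the genes of this list with at least 5 CPM in 3 libraries the median was -0.68, with 1 called lower and 0 higher. Vehicle 1 was at least 2-fold above both other vehicles in 6 of the 14, beside 9.38% of all tested genes. Without that library 3 fell, 0 rose and the median was -0.76. Many of these genes are made by monocytes and macrophages. The 12 monocyte markers, of which 3 fell, summed to 3054 to 4071 CPM with the inhibitor and 4287 to 5713 CPM with vehicle, and their part in these falls was not tested.

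The genes that bring hormone to the receptor, and those that fold and assist it, gave no edgeR call. Among 6 tested genes of steroid access, a raw p below 0.05 was reached by 1 on the higher and 1 on the lower side, and DESeq2 called 1 higher. Hsd11b1, which regenerates active corticosterone inside cells, had 185, 162 and 153 CPM in inhibitors 1, 3 and 5, against 96.2, 122 and 107 CPM in vehicles 1, 2 and 3. Its groups did not overlap, with a log2 fold change of 0.62 ± 0.14 (edgeR adjusted p = 0.0657) and 0.54 without vehicle 1 (0.0496), where it was the 1 call of the list. The list median was -0.13, with -0.29 without vehicle 1 and 0.01 without vehicle 2. Nr3c2, the mineralocorticoid receptor gene, averaged 0.397 CPM with the inhibitor and 1.12 CPM with vehicle (-1.47 ± 0.60), which came to -0.60 without vehicle 1. Abcb1a, a steroid-exporting pump, had a value of -0.51 ± 0.27, and of -0.27 without vehicle 1. Of 12 receptor chaperones, 1 was lower and 0 higher at that raw p, none by DESeq2, and the median was -0.06, or -0.13 without vehicle 1. The HSP70-family gene Hspa4 had a log2 fold change of -0.35 ± 0.12 (edgeR adjusted p = 0.15), Hsp90aa1 one of -0.28 ± 0.15 and Stip1, which couples HSP70 to HSP90, one of -0.18 ± 0.12. Of 18 coregulators, 3 were lower and 0 higher at that raw p, DESeq2 called 2 lower, and the median was -0.01, or -0.15 without vehicle 1. In neither list did edgeR call a gene without vehicle 1. The corepressor gene Nrip1 had a log2 fold change of -1.05 ± 0.36 (edgeR adjusted p = 0.152), which was -0.50 without vehicle 1, and the histone methyltransferase gene Ehmt2 one of -0.26 ± 0.10.

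Per1 was also read beside the rest of the circadian clock. Of 19 tested clock genes edgeR called none. A raw p below 0.05 was found for 6 higher and 4 lower genes, and DESeq2 called 5 on the higher and 3 on the lower side. The median was -0.10, and was above 0 without vehicle 1 (0.16), without vehicle 3 (0.05) and among genes of at least 5 CPM in 3 libraries (0.17). Clock, which drives the E-box genes, had 20.8, 15.8 and 15.8 CPM in inhibitors 1, 3 and 5, against 28.2, 31.6 and 32.4 CPM in vehicles 1, 2 and 3 (-0.81 ± 0.16, edgeR adjusted p = 0.0548), and -0.87 without vehicle 1 (0.0188). Hlf, a clock output factor also used by stem cells, had a log2 fold change of 1.08 ± 0.27 (0.079), and of 0.87 without vehicle 1 (0.0313). Bhlhe40, a repressor at E-boxes, named after its values were seen, was the other gene called lower without vehicle 1, at -0.84 (0.0291), which makes 1 higher and 2 lower there. Of the relatives of Per1, named here after their values were seen, Per2 had 19.6, 21.1 and 18.1 CPM with the inhibitor, against 15.6, 15.5 and 19.5 CPM with vehicle, and Per3 9.08, 8.26 and 9.003 CPM, against 4.56, 4.502 and 6.36 CPM. Vehicle 1 was not high in either gene. Per3 was higher in every inhibitor library than in any vehicle library, as Per1 was over vehicles 2 and 3, and in Per2 the groups overlapped. The labels give no time of day of harvest.

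Among 21 family relatives of the 8 genes, 1 fell in edgeR and 0 rose, with 1 on the higher side and 5 on the lower at a raw p below 0.05, and 1 and 3 by DESeq2. Their median was -0.34, or -0.10 without vehicle 1, where 2 fell and 0 rose, Dusp6 and Dusp4, the second named after its values were seen. With all libraries the gene that fell was Dusp6, a phosphatase of ERK, with 38.7, 41.4 and 36.1 CPM in inhibitors 1, 3 and 5, against 61.5, 99.8 and 94.1 CPM in vehicles 1, 2 and 3, a log2 fold change of -1.14 ± 0.19 (edgeR adjusted p = 0.0422). In Dusp6 vehicle 1 was the lowest vehicle, whereas in Dusp1 it was the highest. Of 17 immediate early genes, the class to which Dusp1 also belongs, 2 fell and 0 rose, with a median of -0.72, which was -0.31 without vehicle 1. At a raw p below 0.05, 7 were lower and 0 higher, DESeq2 called 5 lower and 0 higher, and without vehicle 1 edgeR called 5 lower and 0 higher. Beside this list, macrophage markers summed to 1388 to 1789 CPM with the inhibitor and 3522 to 12011 CPM with vehicle, and monocyte markers to 3054 to 4071 CPM with the inhibitor and 4287 to 5713 CPM with vehicle. Their part was not tested. Egr1 fell by 2.96 ± 0.47 (adjusted p = 0.0403) and Fosb by 1.89 ± 0.35 (0.0495). Without vehicle 1 the log2 fold change of Egr1 was -2.50 (0.0105) and that of Fosb -1.70 (0.0289). Egr1 had 3.94, 4.09 and 3.48 CPM in inhibitors 1, 3 and 5, against 46.6, 11.8 and 31.3 CPM in vehicles 1, 2 and 3.

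FOXO targets, which share Tsc22d3 with the glucocorticoid response, were mostly on the higher side. Of 12 genes 2 rose, 11 had log2 fold changes above 0, beside 6408 of all 12806 genes, and the median was 0.39. Without vehicle 1, 4 rose, 0 fell and the median was 0.42. Of these 4, Cited2, named after its values were seen, also counts among the 30 other induced targets. Neutrophil, B-cell and eosinophil and basophil markers were higher and macrophage markers lower in the same libraries, with the sums given above, and their part was not tested. At a raw p below 0.05, 5 were higher and 0 lower, and DESeq2 called 4 higher and 0 lower. Pik3ip1, an inhibitor of PI3K, rose by 1.18 ± 0.16 (edgeR adjusted p = 0.0323) and Ccng2, an atypical cyclin of resting cells, by 1.09 ± 0.19 (0.0434). Pik3ip1 had 34.8, 36.1 and 42.9 CPM in inhibitors 1, 3 and 5, against 18.5, 17.8 and 13.9 CPM in vehicles 1, 2 and 3. Of 13 stress genes around Ddit4 edgeR called none. A raw p below 0.05 was found for 3 lower and 1 higher, and DESeq2 called 1 lower and 0 higher. Their median was 0.00060, or 0.03 without vehicle 1. Trib3, an ATF4 target, had a value of -2.14 ± 0.56 (edgeR adjusted p = 0.0907), and was called lower without vehicle 1 at -1.23 (0.0261). Ddit3, another stress factor downstream of ATF4, named after its values were seen, was called higher there, at 0.62 (0.0291). The glucose transporter gene Slc2a1 had -0.80 ± 0.29, or -0.46 without vehicle 1, and Atf4 itself -0.31 ± 0.12. In 4 of the 13, as in Ddit4, vehicle 1 was at least 2-fold above both other vehicles, beside 9.38% of all tested genes.

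**Figure D4:**
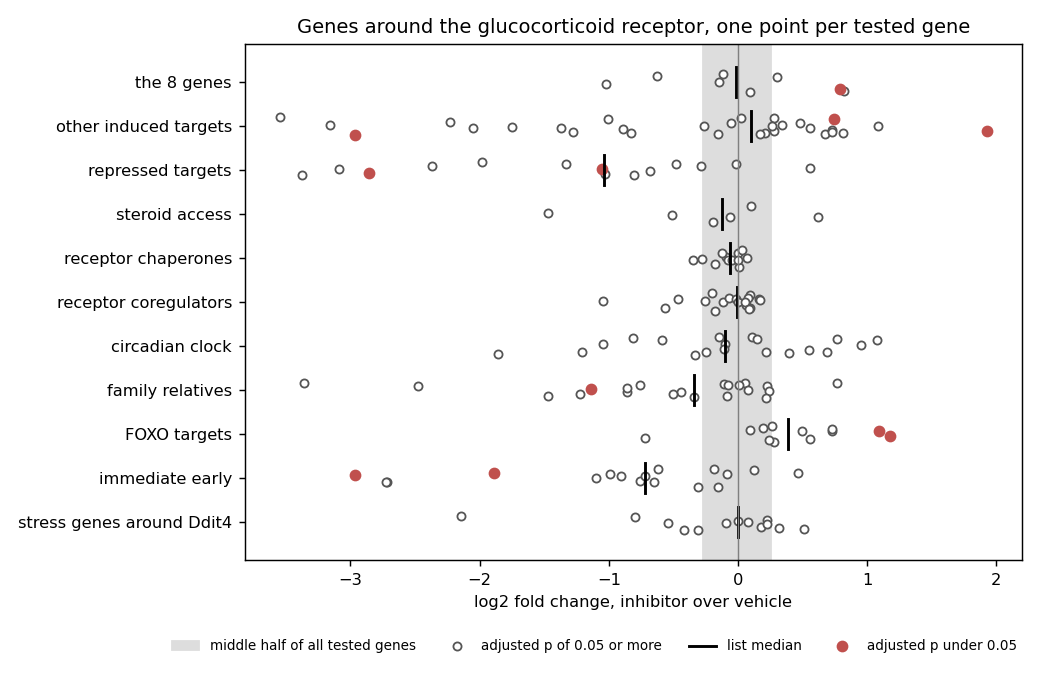
Log2 fold change, inhibitor over vehicle, of each tested gene in the 8 genes and 10 surrounding lists; red points passed an edgeR adjusted p of 0.05, black bars are list medians and the grey band holds the middle 50% of all tested genes. Repressed targets (median -1.04) and immediate early genes (-0.72) lie left of the band and FOXO targets (0.39) right of it.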

How the data were processed

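RNA was measured in 6 mouse bone marrow libraries, 3 per group, grouped by the titles and treatments in the labels. Per the labels' protocols, column-purified RNA was amplified with SMART-Seq v4 and tagmented with Nextera XT, a chemistry without strand information. The submitters' processing notes name STAR, featureCounts and mm10, and versions are not given in the sources used here. What the authors deposited are raw read counts for 14992 genes, beside each gene's length in bases and their own fold change (a ratio), log2 fold change, p-value and adjusted p-value, whose test the sources used here do not state. The fold ratio and its log2 in the deposited table were read only for the 8 genes.

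The deposited counts went into edgeR 4.0.16 (R 4.3.3). Of the genes, filterByExpr kept 12806 and dropped 2186. The model held group alone, with TMM scaling, the quasi-likelihood F test and Benjamini-Hochberg adjusted p under 0.05 over all tested genes. The biological coefficient of variation was 25.2%. Each SE is the log2 fold change over the root of its F statistic. CPM rest on library sizes scaled by TMM, and the lowest count among the 8 genes was 114 reads. Coordinates are from GENCODE M21 (GRCm38, the assembly that mm10 names). The settings also tried were upper-quartile scaling, size factors and the Wald test of DESeq2 1.42.0, limma 3.58.1 voom with sample quality weights, no filter, 5 CPM in 3 libraries, a replicate block, and each library left out. The main edgeR fit and the DESeq2 and limma voom fits were tested on simulated data that held no outlying library. The other scalings and filters, the block and the fits with a library left out were not. The 8 genes and all lists were chosen with earlier results of these data known. Named genes are the 8, Dnmt3a, the called members of each list (or the 3 with the smallest p where none was called), and the 3 nearest profiles of each of the 8, with others marked where they appear. Some genes that this rule names are not reported here. No 2 libraries were duplicates, with a chi-square per degree of freedom of at least 31.2 within groups.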

Additional observations from a re-analysis of the deposited data

How the results depend on the processing

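Counts of called genes were 81 higher and 153 lower over all 6 libraries. They were 628 and 926 by DESeq2, 1374 and 1483 by limma voom with quality weights, which gave vehicle 1 a weight of 0.161, and 0 and 7 with the replicate number as a block. With each library left out in turn they ran from 0 to 401 higher and from 0 to 633 lower, with the highest of both without vehicle 1. Without vehicle 3 or any inhibitor library edgeR called 0 genes in either direction, and without vehicle 2 it called 7 and 84. Only numbers 1 and 3 occur in both groups, so under the block the difference between groups rests on libraries with these numbers. The labels do not tie equal numbers to a shared animal or day. Same-numbered libraries deviated from their group means with correlations across genes of -0.514 and -0.103. The vehicle mean includes the outlying vehicle 1, so these correlations cannot decide whether same-numbered libraries belong together. Under the block the value of Tsc22d3 was 0.847, with an adjusted p of 0.354.

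With 1 library left out, Tsc22d3 ran from 0.715 to 0.858. Under voom with quality weights Fkbp5 passed at 0.422, and Zbtb16 passed at 0.769, as it did by DESeq2 at 0.817. That voom fit also turned the direction of Per1 (0.945, adjusted p = 0.0212) and Klf9 (0.733, adjusted p = 0.0238), which passed as higher, and of Nr3c1 (-0.135), Ddit4 (0.115) and Dusp1 (0.157). With 1 library left out Per1 ran from -0.488 to 0.939, Klf9 from -0.466 to 0.803, Nr3c1 from -0.109 to 0.233, Ddit4 from -1.41 to 0.186 and Dusp1 from -0.94 to 0.165. All 5 turned without vehicle 1, and Per1 (0.0135) and Nr3c1 also without inhibitor 1. The cause was not tested. Over all alternatives the adjusted p of Tsc22d3 ran from 1.12e-06 to 0.354 and that of Zbtb16 from 0.00431 to 0.562. Scaling and filter choices changed no call among the 8 genes. Of 130 list medians under alternatives, 19 moved by more than the spread between libraries, 4 of them without vehicle 1 and 5 under voom with quality weights. Under the block the median of the other induced targets turned to -0.035, that of steroid access to 0.111 and that of the coregulators to 0.058.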

Other observations

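The authors' deposited table gives its own values for the 8 genes, from a test that the sources used here do not state. In the authors' deposited table Tsc22d3 has a log2 fold change of 0.796 with an adjusted p of 6.15e-06, and Zbtb16 has 0.818 with an adjusted p of 0.00432. The other 6 have adjusted p from 0.257 (Fkbp5) to 0.942 (Per1) in the authors' deposited table, where Ddit4 stands at -1.003 and Dusp1 at -0.611.

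Without vehicle 1, and so chosen after the values were seen, further inducible targets of the receptor were called higher by edgeR, in a fit that called 3.10% of all genes higher and 4.89% lower. Nfkbia, the inhibitor of NF-kB, stood at a log2 fold change of 0.62 ± 0.11 (adjusted p = 0.0209), Il1r2, a decoy receptor for interleukin 1, one of 0.85 ± 0.14 (0.0166), Anxa1, annexin A1, one of 0.92 ± 0.20 (0.0365), and Cited2, a partner of the coactivator p300, one of 0.50 ± 0.12 (0.0452). With all 6 libraries Nfkbia had 0.21 ± 0.28 and Il1r2 0.28 ± 0.36, and neither passed. Anxa1 and Cited2 were not called with all 6 libraries either. Cited2 is also counted among the FOXO targets. Anxa1 is also a neutrophil gene, and the neutrophil markers in sum were higher in every inhibitor library. The part of neutrophils in the values of any of these genes was not tested. In the same 5 libraries the macrophage markers Mertk (-2.43 ± 0.15) and Cd163 (-2.24 ± 0.23), also induced targets, were called lower. So were Cdkn1a (-0.64 ± 0.14), Angptl4 (-0.84 ± 0.19) and Tgm2, which macrophages also express, (-1.99 ± 0.28).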
